A study of Homo sapiens with 93 samples.

Results

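The genes described here are the zinc finger genes of the cluster on chromosome 19q13.4, between ZNF577 and ZNF331. They were chosen from a list of 37 Ensembl identifiers, of which 36 are among the 14000 features of the H3K36me3 count table. The remaining identifier, ENSG00000198633, was not analysed here. H3K36me3 was profiled by CUT&Tag, in which an antibody directs a transposase to marked chromatin, in 93 human lymphoblastoid cell lines, with 1 library per line. Such lines are made by transforming B cells with Epstein-Barr virus, and each carries the genome of its own donor. All 93 libraries form 1 group with the same antibody, medium (RPMI with 20% serum) and number of frozen cells (100000), and with no treatment named. The lines were grown in 4 batches, and the labels do not give the batch of a line, so growth batch and line cannot be told apart in any value below. Totals ran from 2842955 to 24325746 counts per library, with a median of 14883653. No table used here pairs Ensembl identifiers with gene symbols, so single rows are named by identifier, and neither the zinc finger label of a row nor the B cell identity of the lines could be checked against named markers. The list order and the order of the table are the same, which lets the members be placed between the ZNF577 end and the ZNF331 end.

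KRAB zinc finger proteins are the largest family of human transcription factors. The KRAB domain binds TRIM28, which brings in the histone H3 lysine 9 methyltransferase SETDB1, and the array of C2H2 fingers chooses the DNA, often a transposable element. The genes stand in tandem clusters that grew by duplication, most of them on chromosome 19. H3K36me3 is laid down by SETD2 behind elongating RNA polymerase II, so it normally covers the bodies of transcribed genes. Over the exons that encode the fingers it is known to lie together with H3K9me3, an unusual pairing of a mark of transcription with a mark of repression.

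In RefSeq on GRCh38.p14 the stretch from ZNF577 to ZNF331, chr19:51804442-53580269, holds 38 protein-coding genes with a ZNF symbol among 47 protein-coding genes. Their annotated lengths run from 13497 to 83510 bases, with a median of 26369. Neighbours overlap in 2 cases, ZNF600 with ZNF28 over 36238 bases and ZNF610 with ZNF880 over 921 bases. Among the genes are ZNF350, also called ZBRK1, a repressor that binds BRCA1, ZNF808, which is needed for pancreas development, and ZNF331, an imprinted gene. Which of the rows below belongs to which of these genes was not assigned.

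Many promoters of the stretch held a short element, often just after the start of transcription. RefSeq windows of 250 bases before to 50 bases after a start were found for 31 of the 38 genes, 44 windows in all. The letters CCGGAAG, a core to which ETS factors bind, were searched on both strands and were present in 24 of 44 windows (54.5%), against 10.3% of all 35116 windows. The longer ACCCGGAAG, which contains it, was present in 19 of 44 (43.2%), against 1.07% of all. By gene, CCGGAAG was present in 21 of 31 (67.7%), against 12.2% of all 27305 genes with a window. Its 26 matches were all on the strand of the gene, 19 of them beginning within the first 25 bases of the transcript and 7 before the start. In 11 windows CCGGAAG began exactly at base 5, counted from the first base of the transcript, and only 30 of all windows had it there. In 4 more it began at base 15. The next lines show the element where it starts at base 5, with 15 bases before and 15 bases after the start, read 5′ to 3′ on the strand of the gene. Capitals mark CCGGAAG.
ZNF841, chr19:52095751-52095780, minus strand: cgcccagtttcctgcacacCCGGAAGcaga
ZNF766, chr19:52269572-52269601, plus strand: cgcgcagccgcctgcagacCCGGAAGtgga
ZNF808, chr19:52527653-52527682, plus strand: cgcggagattaacgcaaacCCGGAAGcgga
ZNF160, chr19:53103408-53103437, minus strand: cgcgcagttgcccacagacCCGGAAGtgga
ZNF845, chr19:53333734-53333763, plus strand: cgcgcagattcgcgcaaacCCGGAAGcgga
ZNF765, chr19:53395134-53395163, plus strand: cgcgcagcttcgcgcagacCCGGAAGcgga

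Where the match began at base 15, the same surroundings returned with the annotated start further upstream, shown here with 5 bases before and 25 bases after the start.
ZNF880, chr19:52369918-52369947, plus strand: cgcgcagtttcctggagacCCGGAAGcaga
ZNF578, chr19:52453548-52453577, plus strand: agcgcagtttcctgaagacCCGGAAGccga
The window of ZNF577, at the edge of the cluster, and that of ZNF350 held no match, and are shown for contrast with 15 bases on either side of the start.
ZNF577, chr19:51887937-51887966, minus strand: ccggccgccatccccgaaacttgcgagtgt
ZNF350, chr19:51986826-51986855, minus strand: taaacccgtgcgaggactccagaagtagga

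Other letters searched on both strands were GGGCGG, the core of an SP1 box, present in 68.2% of the 44 windows against 45% of all, CCAAT in 27.3% against 34.6%, TATAAA in 2.27% against 11.5%, and AAGATGGCG, as in YY1 sites, in 4.55% against 1.75%. The ratio of observed to expected CpG had a median of 0.828 in the 44 windows and 0.579 in all windows. A match is a description of letters and not a measured binding site, and genes that arose by duplication share sequence. The letters searched were chosen with earlier results of these data known, and the shares of windows have no test.

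Counts over the members spanned a wide range of levels; with no control library here, a level is not set against a background of unmarked chromatin. Counts were scaled to the library total (CPM, the usual per-library scale) with TMM factors. The median CPM over lines ran from 2.73 to 79.1 between members, a 29-fold range, and its median over the 36 members was 23.8. These levels are per feature and not per kilobase, since lengths could not be paired with rows, so gene length enters the order. Of the 36 members, 8 lay above the median of all features and 28 below it. On the log2 CPM scale (prior count 2) the median member lay 0.82 below the median feature, and per line the difference was -0.85 ± 0.28 (SD, n = 93), below 0 in 93 of 93 lines. The members stand in rows 7559 to 7597 of the table, within a stretch (rows after 3200 up to 7700) whose own median level was lower, 4.88 log2 CPM against 5.40 for all features. Against that stretch the median member lay 0.29 lower.

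**Figure D1:**
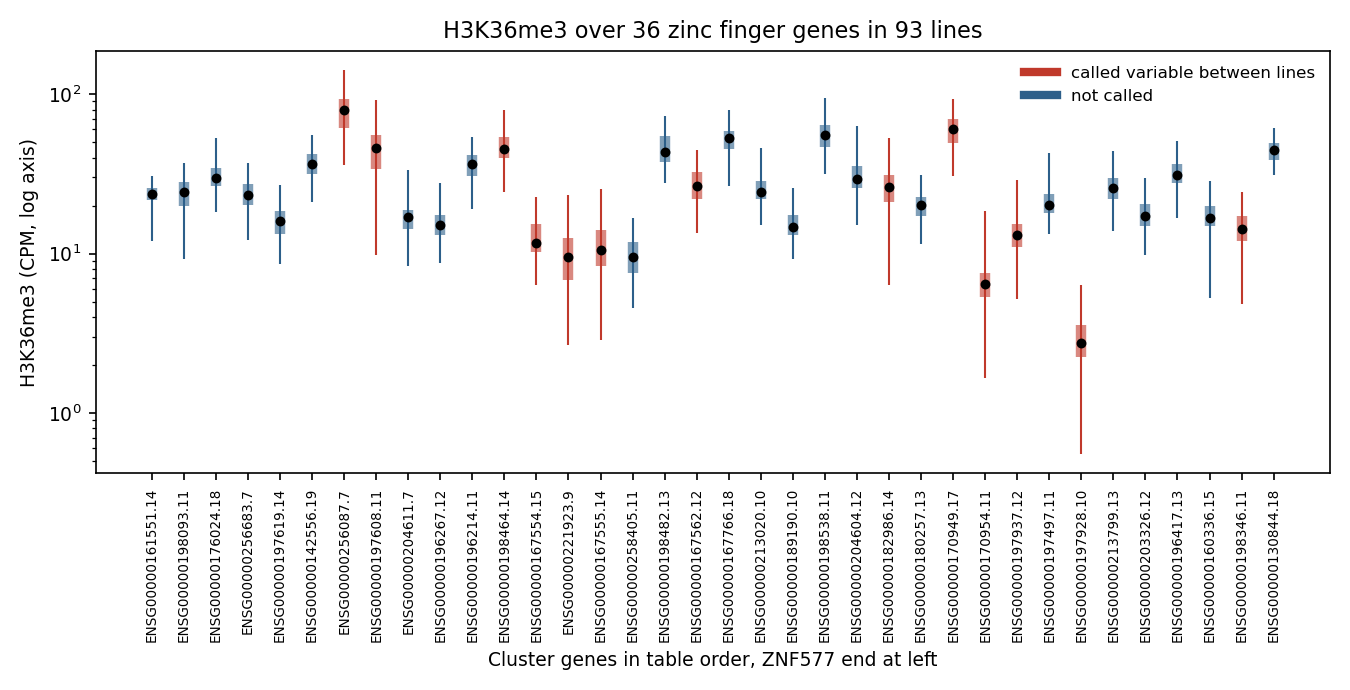
H3K36me3 level in CPM (log axis) of the 36 members in table order, with the ZNF577 end at the left; dots are medians over 93 lines, thick bars the quartiles, thin bars the lowest to highest line, and red marks the 13 members called variable between lines. Medians lie between 2.73 and 79.1 CPM. The lowest stand between the ends, at positions 13 to 16 and at 27, 28 and 30 from the left.

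The highest member was ENSG00000256087.7, with 35.7 CPM in its lowest line, a median of 79.1 and 142 in its highest. Next were ENSG00000170949.17, with 30.4, 60.7 and 93, and ENSG00000198538.11, with 31.7, 55.3 and 94.7. ENSG00000167766.18 was the fourth highest, at 26.4, 53.4 and 80. The ranges of these 4 over the 93 lines overlapped, and differences between them within a line were not tested.

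The lowest member was ENSG00000197928.10, at 0.552 CPM in its lowest line, a median of 2.73 and 6.4 in its highest, which rests on 4 to 150 counts. ENSG00000170954.11 followed with 1.65, 6.4 and 18.6 CPM. ENSG00000258405.11 had 4.55, 9.46 and 16.8, and ENSG00000221923.9 had 2.69, 9.51 and 23.3. The highest line of ENSG00000197928.10 and the lowest lines of the 4 highest members did not overlap. All 36 members passed the filter of at least 10 counts in at least 47 libraries.

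At the ZNF577 end, ENSG00000161551.14, the first member, had 12 CPM in its lowest line, a median of 23.5 and 30.6 in its highest. At the ZNF331 end, ENSG00000130844.18, the last member, had 31.2, 44.6 and 60.9. These were also the members with the smallest coefficients of variation between lines, 0.138 and 0.149. Both bounding genes of the list were thus marked at a narrower range of levels than the genes between them.

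The next question was which members differed between lines by more than features of like count. Each feature's dispersion was set against the trend over all features, with depth (the log2 of the library total) and dynamic range in the model. Dynamic range is the median log2 CPM of the best marked 20% of features minus that of the least marked 20% in a library. By edgeR's goodness-of-fit test with Benjamini-Hochberg adjustment at 0.05, 13 of the 36 members (36.1%) varied more than the trend, against 18.6% of all 13915 features tested. On the log2 scale the ratio of a feature's own dispersion to the trend had a median of 0.23 over the members and -0.51 over all features. It was above 0 in 27 of 36 members and in 32% of all features. The own dispersion is edgeR's tagwise estimate, which is drawn toward the trend. Fitted apart, the 46 shallower libraries gave 8 members (14.1% of all features) and the 47 deeper ones 8 (14.5%), while the stricter dispersion outliers of DESeq2 numbered 2 (1.86%). Without depth and dynamic range in the model 9 of 36 were called, against 22.7% of all features, a share near the background. The median coefficient of variation was 0.247 over the members and 0.205 over all features tested. Unlike the dispersion ratio, this coefficient is not adjusted for level, depth or dynamic range.

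Of the 6 members with the highest ratio of own to trended dispersion, ENSG00000197608.11 came first at 2.17 log2 units, and each of the 6 was called. Its levels ran from 9.76 through a median of 45.7 to 92.4 CPM, with 6 lines under 50% of the median and 6 over 1.5 times it. ENSG00000221923.9, at 2.13, had 11 lines under 50% of its median of 9.51 CPM and 19 over 1.5 times it, so high and low lines were both common. ENSG00000167555.14, at 2.05, ran from 2.88 through 10.6 to 25.3 CPM, with 8 lines under 50% of the median and 17 over 1.5 times it.

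ENSG00000221923.9 and ENSG00000167555.14 stand in adjacent rows, and they spanned 8.66-fold and 8.78-fold from the lowest to the highest line. ENSG00000182986.14, at 1.89, ran from 6.33 through 26 to 52.8 CPM. ENSG00000197928.10, the lowest member, had a ratio of 1.46, and ENSG00000256087.7, the highest, one of 1.21. Large spread relative to the trend was therefore seen at both ends of the range of levels. The least variable members relative to the trend were ENSG00000161551.14 (-1.34), ENSG00000130844.18 (-0.78) and ENSG00000189190.10 (-0.41), none of them called.

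The members varied together from line to line. Over the 630 pairs of members, the correlation across the 93 lines, taken on log2 CPM after regression on depth and dynamic range, had a mean of 0.409 and a median of 0.459, from -0.251 to 0.963, and it was above 0 in 592 pairs and above 0.5 in 246. The first principal component of the 36 members held 46.5% of their variance and the second 9.16%. The pairs share libraries and are not independent, so these values are descriptions with no test. The same libraries gave a mean of 0.434 with no covariates, 0.334 with 5 principal components of the whole table removed and 0.431 on the deposited scores.

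Member pairs far apart in the cluster were nearly as correlated as close ones. Member pairs 1 row apart had a mean correlation of 0.468, those 6 to 10 rows apart 0.405 and those 21 to 38 rows apart 0.378. Other features of the table had means of 0.276, 0.0981 and 0.0626 at the same distances. The mean thus dropped little from one end of the cluster to the other, and dropped more with distance elsewhere in the table.

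In the 20 rows on either side of the cluster the mean correlation with the members was near 0, with single rows above it. Runs of correlated rows further away are described below. The 20 rows before the first member held 19 tested features, whose mean correlation with the members was -0.031. The 20 rows after the last member had a mean of 0.0524 with the members. Single rows before the cluster had r from -0.295 to 0.159 with the cluster mean, and those after it from -0.218 to 0.440, the highest of them above the first member. With the mean of the cluster, ENSG00000130844.18 had r = 0.627 against the other members and the row after it 0.26. At the other edge the change came 1 row later, since ENSG00000161551.14, the first member, had only 0.115 and the second member, ENSG00000198093.11, 0.664.

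**Figure D2:**
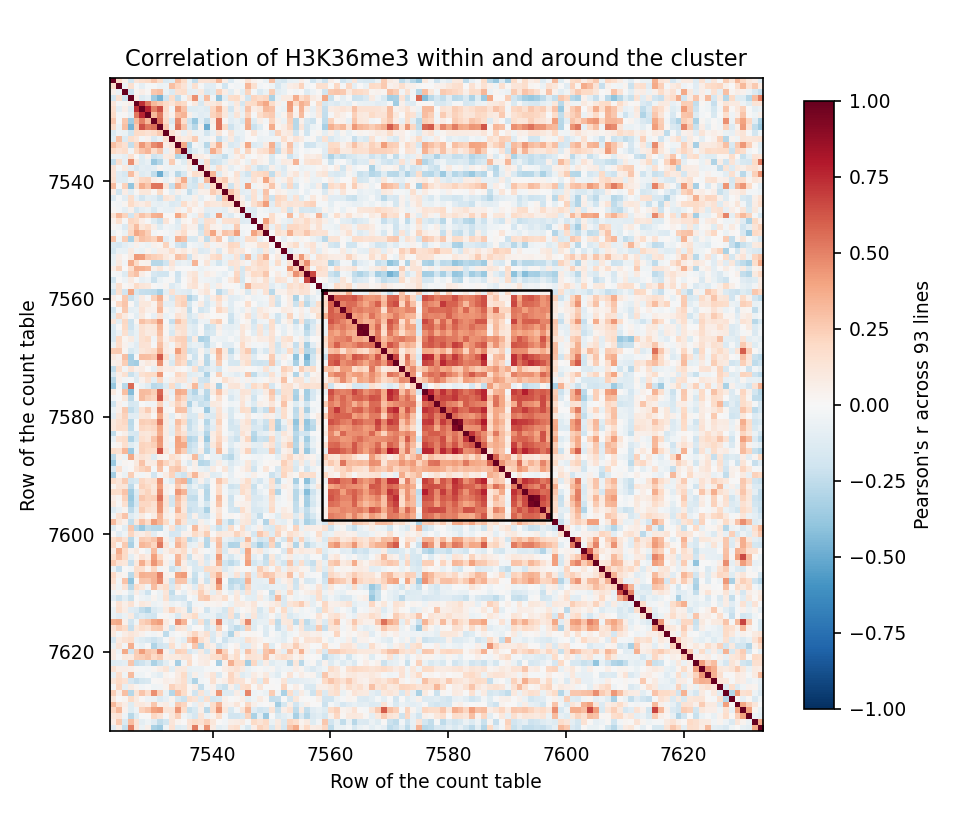
Pearson correlation across 93 lines of residual log2 CPM for the rows of the cluster (black square) and 36 rows on either side; both axes are rows of the count table and colour runs from -1 (blue) to 1 (red). The square is filled at all distances from the diagonal except for pale stripes at single members, and rows outside it are mostly near 0.

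Inside the stretch stand 3 features that are not on the list. ENSG00000213793.5 had r = 0.702 with the cluster mean and ENSG00000286261.1 had 0.711, both above the median of 0.681 of the members themselves. ENSG00000105568.18, with a median of 79.3 CPM, had 0.405. What these features are was not assigned.

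Per line, the mean residual of the 36 members ran from -0.61 to 0.68 log2, an SD of 0.21 and a 2.44-fold span between the extreme lines. In 19 lines at least 30 of the 36 members lay above their fitted level, and in 13 lines at least 30 lay below it. The mean of the 18 members at the ZNF577 end and that of the 18 at the ZNF331 end were correlated over 93 lines, with Pearson's r = 0.897 and a Spearman rho of 0.876. Leaving out the 2 lines whose mean at the ZNF577 end was most distant from its median gave r = 0.873. No p is given, since members chosen as a list are not separate tests. Within the 46 shallower libraries r was 0.897 and within the 47 deeper ones 0.894.

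**Figure D3:**
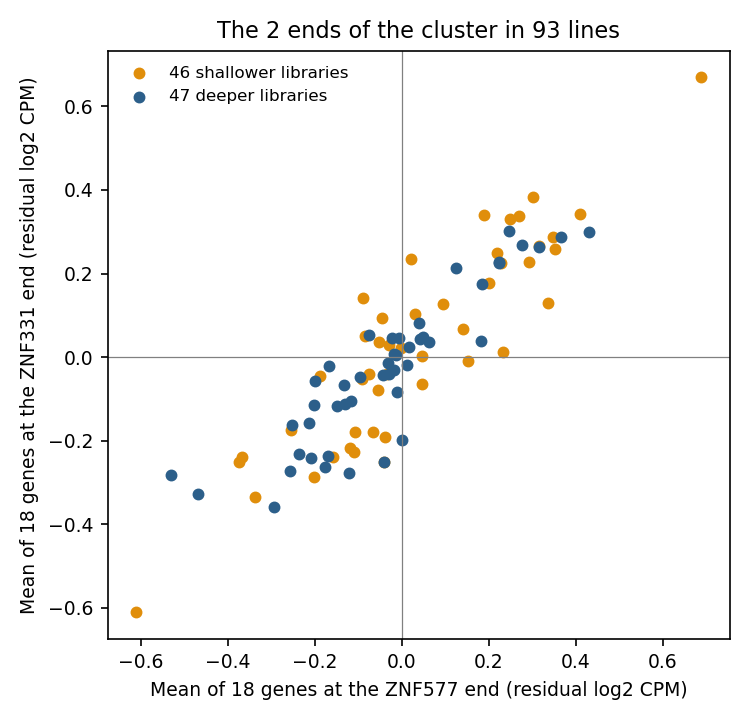
Each point is 1 of 93 lines; the axes give the mean residual log2 CPM of the 18 members at the ZNF577 end (x) and at the ZNF331 end (y), orange for the 46 shallower and blue for the 47 deeper libraries. Lines high at one end of the cluster are high at the other, in both depth classes (r = 0.897 and 0.894).

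Among neighbours, 20 of 35 pairs had a correlation above 0.5. The closest were ENSG00000256087.7 with ENSG00000197608.11 (0.963) and ENSG00000198538.11 with ENSG00000204604.12 (0.927). In the first of these pairs the CPM of the second gene was 0.579 of that of the first in the median line, from 0.252 to 0.675. In the other it was 0.542, from 0.461 to 0.667. The next pairs were ENSG00000198482.13 with ENSG00000167562.12 (0.765), ENSG00000196214.11 with ENSG00000198464.14 (0.675) and ENSG00000196417.13 with ENSG00000160336.15 (0.65). Members are paralogues and some overlap, and whether reads shared between features enter these values was not tested. High correlation was not limited to neighbours, since ENSG00000196214.11 and ENSG00000170949.17, 16 rows apart, had 0.799.

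The weakest neighbouring pairs were ENSG00000258405.11 with ENSG00000198482.13 (-0.167), ENSG00000197928.10 with ENSG00000213799.13 (-0.0126) and ENSG00000170949.17 with ENSG00000170954.11 (0.131). Each of them holds 1 member that stood apart from the rest of the cluster. These members are among those of the pale stripes in the map of correlations. ENSG00000161551.14 also stood apart, with r = 0.115 against the other members.

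Members that stood apart were the same ones that moved differently with the dynamic range of the libraries. The slope of log2 level on dynamic range, in log2 per log2 unit, had a median of 1.01 over the 36 members, against 0.18 over all features. By edgeR's quasi-likelihood test with Benjamini-Hochberg adjustment at 0.05, 29 members were higher in libraries of larger dynamic range, against 44.5% of all features, and 3 were lower, against 35.5% of all. With DESeq2 size factors 28 were higher, against 43% of all. Dynamic range is computed from the same libraries and ran from 4.25 to 5.07 log2. It subtracts the level of the least marked 20% of features, so a negative slope is partly built in for features among them.

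All 30 members with a positive slope lay between 0.56 and 1.40. The only one of them not called was ENSG00000167555.14 (0.77 ± 0.40 SE, adjusted p = 0.0695, edgeR). The 6 with a negative slope lay between -1.75 and -0.29, and no member fell between -0.29 and 0.56. ENSG00000258405.11 had the steepest, -1.75 ± 0.21 (SE), and ENSG00000161551.14 (-0.53 ± 0.13 SE) and ENSG00000197497.11 (-0.47 ± 0.19 SE) were also called lower. ENSG00000197928.10 (-0.72 ± 0.40 SE), ENSG00000167554.15 (-0.33 ± 0.30 SE) and ENSG00000170954.11 (-0.29 ± 0.30 SE) were not called.

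These 6 members also had the 6 lowest correlations with the rest of the cluster, from 0.0441 to 0.507, while the 30 others had 0.529 to 0.832. Dynamic range had been removed before those correlations were taken. Among the 30, all 435 pairs had a correlation above 0, with a mean of 0.519. Among the 6 the mean over 15 pairs was 0.277, and between the 6 and the 30 it was 0.154. The median CPM was 10.6 over the 6 and 25.8 over the 30. By median level, ENSG00000197928.10, ENSG00000170954.11, ENSG00000258405.11 and ENSG00000167554.15 of the 6 stood at percentiles 3.29, 8.88, 13.7 and 17.2 of all features. ENSG00000197497.11 and ENSG00000161551.14 stood at 28.5 and 32.3. Of the 30, ENSG00000221923.9, ENSG00000167555.14 and ENSG00000197937.12 also lay under 20, at 13.8, 15.4 and 19.1. Whether low level, or the built-in part of the slope at low level, accounts for the split was not tested. The split into 6 and 30 was drawn after the values had been seen and has no test.

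Few members were related to depth. By the same edgeR test 0 members were higher in deeper libraries (0 also at unadjusted p under 0.05, and 0 by DESeq2's Wald test), against 29.2% of all features, and 4 were lower, against 35.8% of all. The 4 were ENSG00000161551.14, ENSG00000258405.11, ENSG00000197497.11 and ENSG00000197928.10, all among the 6 with a negative slope on dynamic range. Without the 10 shallowest libraries 9 members were lower, against 33.4% of all features, 3 of these 4 among them.

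**Figure D4:**
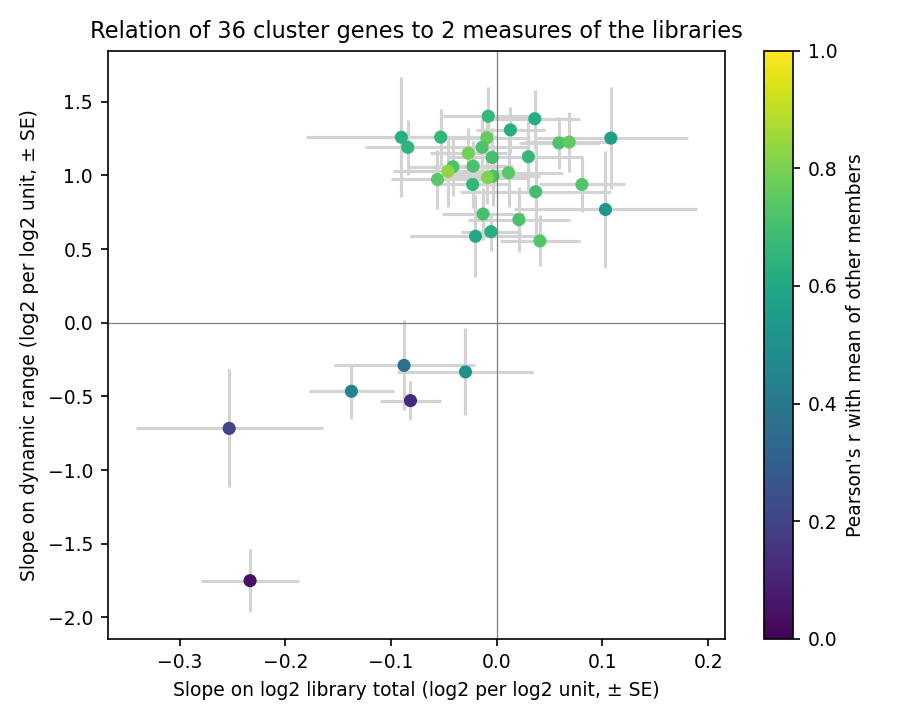
Slope of each of the 36 members on log2 library total (x) and on dynamic range (y), in log2 per log2 unit with bars of 1 SE; colour gives the correlation with the mean of the other members. The 30 members with slopes above 0 on dynamic range lie at 0.56 to 1.40. The 6 below 0, of which only 3 were called lower, have the lowest correlations.

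Some features elsewhere in the table varied with the cluster too, and how many of them lay near it depends on the limit set. Of 13879 other features tested, 129 had a correlation above 0.6 with the mean of the cluster, 0 lay below -0.6, and the median was 0.0131. Of the 129, 97 (75.2%) stood in the rows after 6800 up to 7800, where 10.1% of the other features passed 0.6, against 0.248% elsewhere. At a limit of 0.5 there were 260 such features, 130 of them (50%) in those rows, and 12 features lay under -0.5. The features above 0.6 came in runs: 23 of 50 tested features in rows after 7100 up to 7150, 20 of 50 in rows after 7200 up to 7250, 17 of 50 in rows after 6900 up to 6950, and 13 of 49 in rows after 7650 up to 7700. A further 7 stood far away, in rows after 12450 up to 12500. What genes these are was not assigned, and the limit of 0.6 was set after the values had been seen.

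**Figure D5:**
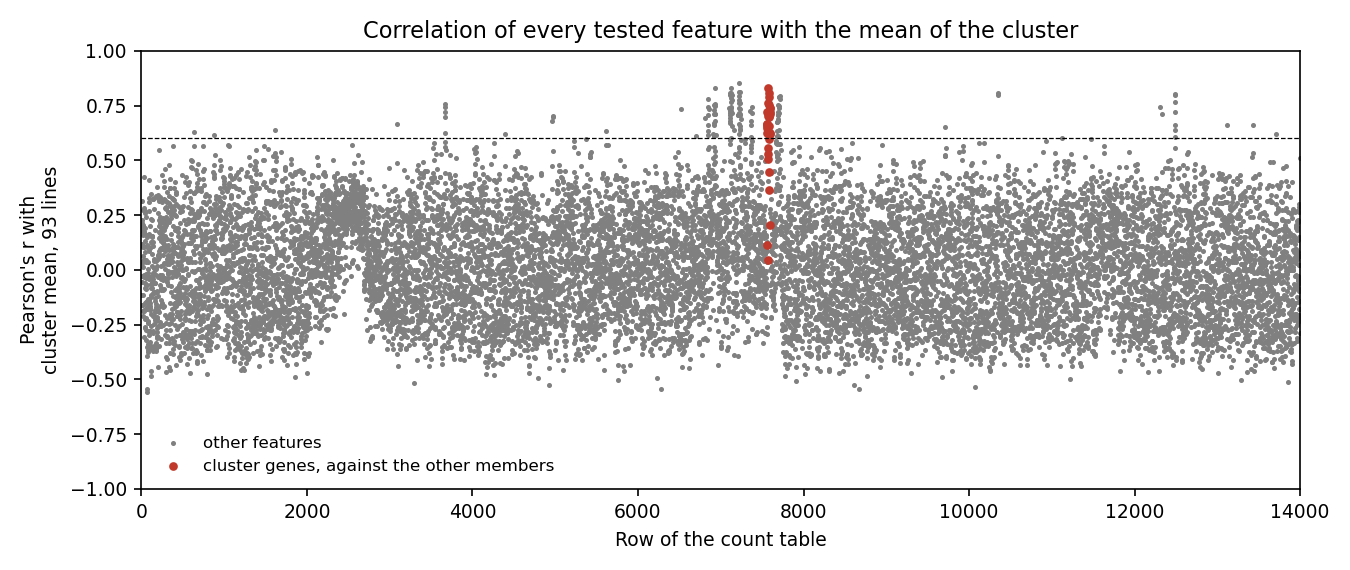
Pearson correlation across 93 lines of each tested feature (grey) with the mean residual of the cluster, by row of the count table; members (red) are set against the mean of the other members, and the dashed line marks 0.6. Grey columns rise above the line in a few narrow stretches, most of them in rows after 6800 up to 7800.

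As a run of rows, the cluster reached a mean correlation well above that of the median window, though not the highest of the table. The highest mean pairwise correlation of any 36 consecutive rows overlapping it was 0.425, against a median of 0.0707 over all such windows. The highest elsewhere was 0.398, in rows 6907 to 6942, leaving aside the rows after 1900 up to 3200, where windows reached 0.73. The members lie outside those rows.

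One property of the counts set some members apart. In 60.3% of the entries of the 36 members the count was an even number, against 52% over all features and 54% in rows after 3200 up to 7700. ENSG00000213020.10 had an even count in 80 of 93 lines (86%), which 20 features of the 14000, itself included, reached or passed, and ENSG00000170954.11 in 76 (81.7%). In 5 of the 36 members the share was above 70%, as in 1.84% of all features and 3.93% of those in rows after 3200 up to 7700. The reason was not tested. The level and spread of ENSG00000213020.10, at 15 CPM in its lowest line, a median of 24.2 and 45.6 in its highest, lay within the range of the other members.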

How the data were processed

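H3K36me3 CUT&Tag was measured in 93 lymphoblastoid lines; libraries were amplified with 14 PCR cycles, per the labels' protocols. The authors deposited counts, whole numbers per Ensembl identifier. The submitters' processing notes list HISAT2 2.2.1, bedtools and hg38 without saying what each was used for; no source used here gives the counted interval, filters or strand. Deposited scores are normal scores whose making is not given; they followed CPM closely in the members (median Spearman 0.984). From the counts, TMM factors (0.916 to 1.05), log2 CPM (prior count 2), the goodness-of-fit and the quasi-likelihood tests were computed in edgeR 4.0.16 under R 4.3.3 on the 13915 features that reached 10 counts in 47 or more libraries, with p-values adjusted over all of them. DESeq2 1.42.0 was an alternative. Correlations used numpy 2.4.6 in Python 3.11.15. Depth and dynamic range were the covariates. Libraries are the replicates, 1 per line, so p-values measure the spread between libraries, which holds line, culture and technical differences. PCR reads without molecular identifiers are not independent molecules.

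Values are given for the 4 highest and 4 lowest members by level, 6 highest and 3 lowest by dispersion ratio, the 5 closest and 3 weakest neighbouring pairs, and the first and last member; the part of the rule naming gene symbols, the lists of repression machinery, H3K36 enzymes, 19p12 zinc finger genes and cell type markers, and level per kilobase were not used, because 0 identifiers could be paired with symbols. The members, lists and motifs were chosen with earlier results of these data known. Promoter windows come from RefSeq, GRCh38.p14. The tests were run on simulated counts, drawn independently for each of 13913 features at the trended dispersion. Planted spreads of SD 0.3 and 0.6 log2 were called in 98 and 100 of 100 features, with 10 false calls. Planted depth slopes of 0.2 in size were called in 190 of 200, with 10 false calls. Such counts hold no shared variation between features, so they do not give the false call rate in the real libraries. Alternatives covered size factors, prior count, filter, covariates, test, deposited scores and libraries left out.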

Additional observations from a re-analysis of the deposited data

How the results depend on the processing

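The stretch of rows after 3200 up to 7700 and the split into 46 shallower and 47 deeper libraries were chosen after seeing the data. The number of members varying more than the trend was 13. It was 2 by DESeq2's dispersion outliers, a stricter criterion that called 1.86% of all features, and 8 in the shallower as in the deeper libraries, with fewer libraries tested and 14.1% and 14.5% of all features called; it ran from 9 to 18 under 6 others, with 16.9% to 22.7% of all features called. With an intercept alone it was 9 of 36, all among the 13, against 22.7% of all features, so the members' share was then near the background. With 5 principal components it was 13, 11 of them among the main 13, against 18.6% of all. Members lower in deeper libraries numbered 9 in place of 4 without the 10 shallowest libraries; the cause was not tested. The median member level relative to the median feature was -0.29 in place of -0.82 when set against rows after 3200 up to 7700, whose level is lower. Mean pairwise correlation ran from 0.334 to 0.434 under 9 alternatives. Members higher with dynamic range numbered 28 or 29 (43% to 44.6% of all features) and lower ones 3 or 4 (35.4% to 36.4% of all) under 3 alternatives each. Length scaling was not run. No paired analysis was possible because all 93 libraries belong to a single group. The lowest member had only 4 counts in 1 line, which limits its precision.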
